A study of Mus musculus with 6 samples.

Results

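The enzymes that build cholesterol and fatty acids, with the proteins that sense sterols and export them, were followed in cultured mouse pericytes given platelet-derived growth factor BB (PDGF-BB). The genes were taken from a list of 39 symbols, and a gene was used where exactly 1 probe set of the array carried its symbol. This gave 35 genes of the 20239 that were measured with a symbol. Acat2, Hmgcs1, Idi1 and Nr1h2 were not analysed here. Pericytes are the mural cells that wrap capillaries, and PDGF-BB signals to them through the receptor kinase PDGFR-β. The 3 control arrays and the 3 PDGF-BB arrays came from isolated pericytes of the C57BL/6 background, held for 5 days without or with PDGF-BB at 100 ng/ml. The labels name neither a transgene nor the tissue, age or sex of the mice, do not say what the control cultures received, and do not say whether the 3 arrays of a group came from separate cultures. The p-values therefore rest on the spread among 6 samples, and part or all of that spread may be technical.

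Cholesterol is made from acetyl-CoA through mevalonate, isoprenoid diphosphates, squalene and lanosterol, and fatty acids are made from acetyl-CoA through malonyl-CoA. Both routes are driven by the SREBP transcription factors, which the sterol-binding pair of SCAP and INSIG proteins holds in the endoplasmic reticulum while sterols are plentiful. SREBP2 is known mainly for the sterol genes and SREBP1 mainly for the fatty acid genes, whereas the oxysterol-activated LXR receptors drive cholesterol export through ABCA1 and ABCG1. Growth factors of the PDGF class are known to raise SREBP activity through PI3K and AKT in several cell types.

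Nearly the whole synthetic route was higher with PDGF-BB. Of the 35 genes, 28 rose and 1 fell (limma, adjusted p under 0.05 over all genes). Over all genes tested 10.1% rose and 11.4% fell. The median log2 change of the 35 genes was 0.56, beside -0.02 over all genes. Increases of at least 2-fold were measured for 9 of the 35 genes, and 2.04% of all genes passed with such an increase. Among genes that rose, these were 9 of the 28 members and 413 of 2037 over all genes. The gene that fell was Abca1, the cholesterol exporter. The 6 genes that did not pass were Insig2, Scap, Fads1, Fads2, Abcg1 and Nr1h3. The members share the same 6 arrays and were chosen as a pathway with earlier results known, so their number is a description and not a test of the pathway. The RNA was measured in bulk, so fewer cells of a type and less RNA per cell cannot be told apart.

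**Figure D1:**
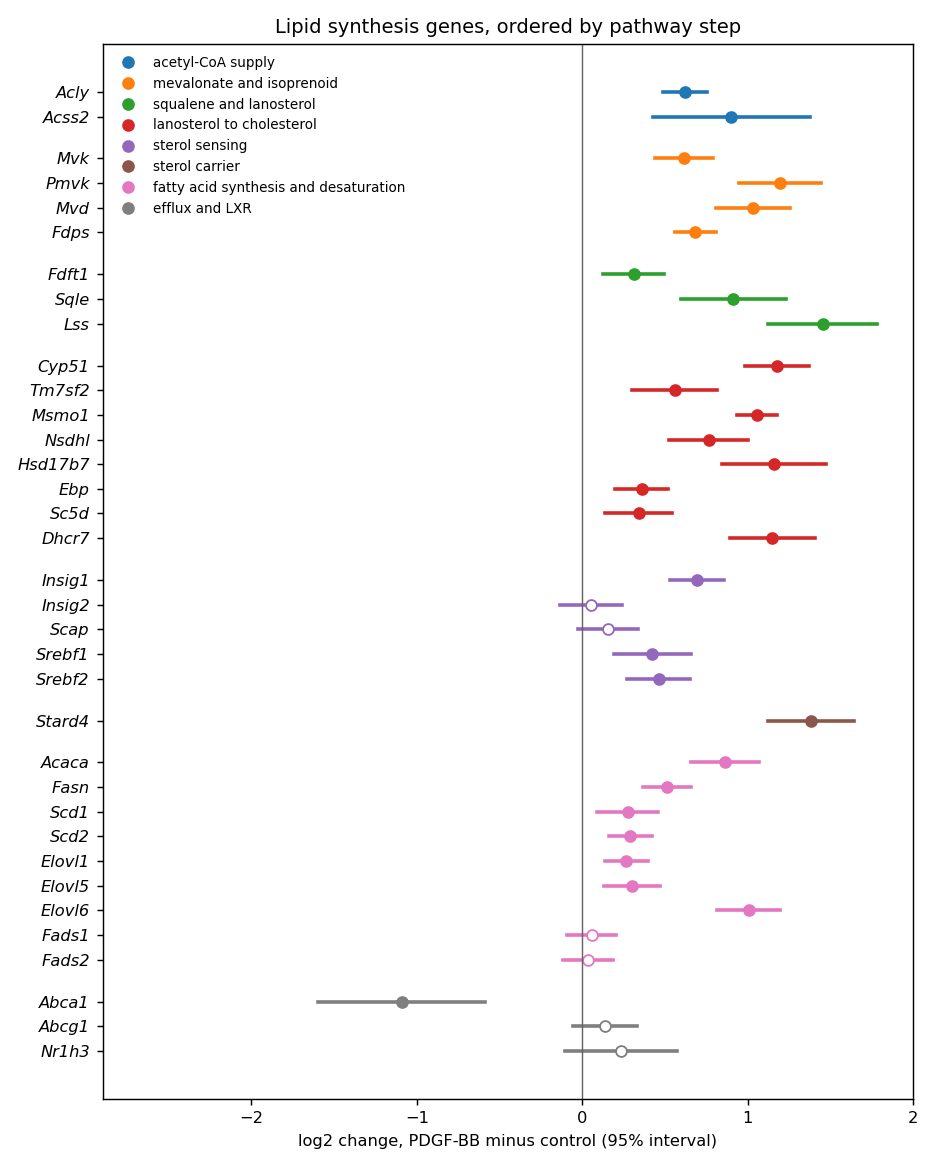
Log2 change (PDGF-BB minus control, x axis) of the 35 genes in pathway order (y axis), with the 95% interval of the limma fit; filled points passed at an adjusted p under 0.05 and open points did not, and colours mark the pathway step. All 15 genes of the sterol arm lie to the right of 0, Fads1 and Fads2 lie near 0, and Abca1 is alone at -1.09.

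Most of the start regions held the CCAAT box, a short sequence. The genes were chosen as a known pathway of lipid synthesis, so how often they hold it is not independent of that choice. It says nothing about the response to PDGF-BB. RefSeq windows of 300 bases, from 250 before to 50 after each annotated start (GRCm38.p6), were held for 27 of the 35 genes. Fdps, Fdft1, Sqle, Stard4, Scd1, Scd2, Fads1 and Abcg1 had no entry. The CCAAT box, the letters that the factor NF-Y is known to bind beside SREBP in many sterol gene promoters, was searched on both strands, where it reads ATTGG, and overlapping matches were counted separately. It was found in 21 of the 27 genes (77.8%), beside 42.3% of 17491 protein-coding genes and 50.7% of the 1622 protein-coding genes that rose with PDGF-BB and had a window. In the sterol arm 12 of 12 genes with a window held it, and in the fatty acid arm 3 of 6. Of the genes that did not pass, Insig2 held it, while Scap, Fads2 and Nr1h3 did not. Acaca and Elovl6 rose without it. Some genes have several windows and so more chances of a match; among genes with a single window the box was in 16 of 20 members and in 39.6% of 14730 protein-coding genes. The sterol regulatory element in the form TCACNCCAC was found in 0 of the 27 genes, beside 1.41% of the 17491 protein-coding genes. The DR4 element of LXR was in 0 of the 27, and its share was counted per window only, at 0.0883% of all 32851. Both are so rare that finding none in 27 genes carries little information. The E-box CACGTG was in 7 of the 27, beside 8.91% of protein-coding genes, 11.9% of those above background and 12.2% of those that rose, and lay 147 bases before the start of Abca1 and 101 before that of Insig1. A match describes letters, not binding, and the lack of one says only that those letters were not in these windows.

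For each pathway step, the window of the gene with the largest change among genes with a single window is printed below 5′ to 3′ on the gene's own strand, with CCAAT and ATTGG in capitals, to show the boxes beside the start. They lie at chr2:155517793-155518092, plus strand (Acss2), chr8:122443373-122443672, minus strand (Mvd), chr10:76531355-76531654, plus strand (Lss), chr5:4104648-4104947, minus strand (Cyp51), chr5:28071162-28071461, plus strand (Insig1), chr3:129532136-129532435, plus strand (Elovl6) and chr4:53159846-53160145, minus strand (Abca1).
Acss2: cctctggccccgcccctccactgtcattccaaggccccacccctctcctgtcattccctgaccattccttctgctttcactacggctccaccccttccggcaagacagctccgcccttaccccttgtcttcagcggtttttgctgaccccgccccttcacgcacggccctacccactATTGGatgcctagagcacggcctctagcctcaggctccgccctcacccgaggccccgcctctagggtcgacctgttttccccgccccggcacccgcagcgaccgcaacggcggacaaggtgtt
Mvd: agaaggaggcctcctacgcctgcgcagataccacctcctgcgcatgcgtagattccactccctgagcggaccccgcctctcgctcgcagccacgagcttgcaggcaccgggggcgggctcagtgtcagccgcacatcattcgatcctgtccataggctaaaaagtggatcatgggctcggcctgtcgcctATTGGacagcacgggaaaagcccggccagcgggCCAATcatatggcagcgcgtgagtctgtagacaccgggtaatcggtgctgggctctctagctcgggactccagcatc
Lss: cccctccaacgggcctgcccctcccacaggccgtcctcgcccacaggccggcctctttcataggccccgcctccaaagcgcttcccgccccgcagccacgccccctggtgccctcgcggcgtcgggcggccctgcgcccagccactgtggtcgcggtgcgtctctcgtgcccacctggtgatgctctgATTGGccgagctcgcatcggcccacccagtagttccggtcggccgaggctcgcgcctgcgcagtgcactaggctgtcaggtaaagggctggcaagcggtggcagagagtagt
Cyp51: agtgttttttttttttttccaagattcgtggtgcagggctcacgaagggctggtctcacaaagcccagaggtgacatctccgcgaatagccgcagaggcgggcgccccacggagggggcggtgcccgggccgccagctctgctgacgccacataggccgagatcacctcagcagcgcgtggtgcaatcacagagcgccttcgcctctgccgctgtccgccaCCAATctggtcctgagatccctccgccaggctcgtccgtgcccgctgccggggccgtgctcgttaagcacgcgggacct
Insig1: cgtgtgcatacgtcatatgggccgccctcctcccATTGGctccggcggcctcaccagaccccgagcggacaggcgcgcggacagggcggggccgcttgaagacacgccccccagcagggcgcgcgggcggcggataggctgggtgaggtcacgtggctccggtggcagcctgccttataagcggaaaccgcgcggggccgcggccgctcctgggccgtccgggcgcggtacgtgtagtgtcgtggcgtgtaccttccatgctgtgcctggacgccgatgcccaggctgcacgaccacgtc
Elovl6: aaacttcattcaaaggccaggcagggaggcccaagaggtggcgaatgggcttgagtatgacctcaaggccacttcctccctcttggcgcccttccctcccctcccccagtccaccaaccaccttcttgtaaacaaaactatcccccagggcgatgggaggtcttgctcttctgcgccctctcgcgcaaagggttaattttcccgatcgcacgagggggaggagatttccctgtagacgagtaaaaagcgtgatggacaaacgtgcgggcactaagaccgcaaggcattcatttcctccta
Abca1: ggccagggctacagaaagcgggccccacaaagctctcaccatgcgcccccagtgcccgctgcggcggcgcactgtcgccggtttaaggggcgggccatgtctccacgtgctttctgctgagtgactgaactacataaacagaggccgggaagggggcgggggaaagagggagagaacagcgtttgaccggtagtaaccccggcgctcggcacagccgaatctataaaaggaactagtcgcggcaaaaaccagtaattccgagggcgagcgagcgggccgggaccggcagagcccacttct
The box began 73 bases before the start in Acss2, 60 and 27 in Mvd, 62 in Lss, 29 in Cyp51 and 216 in Insig1. The windows of Elovl6, which rose, and Abca1, which fell, held none.

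Both suppliers of cytosolic acetyl-CoA rose. Acly, ATP citrate lyase, which cleaves exported citrate (Entrez gene 104112), measured log2 values of 11.48, 11.50 and 11.41 in the control arrays and 12.06, 12.09 and 12.11 in the PDGF-BB arrays. The PDGF-BB arrays of Acly differed from each other far less than from the controls, a 1.54-fold increase (log2 change 0.62, SE 0.06, limma adjusted p = 0.0012). Acss2, the acetyl-CoA synthetase that uses acetate, measured 9.49, 10.05 and 9.82 against 10.57, 10.41 and 11.08. Its groups did not overlap, but the spread within each was wide, at SDs of 0.28 and 0.35 (n = 3 each). The increase was 1.87-fold (limma adjusted p = 0.020), and the p was 0.055 when control array 3 was omitted and 0.051 when PDGF-BB array 1 was.

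In the mevalonate and isoprenoid steps, 4 of 4 measured genes rose (median log2 change 0.86). Pmvk, which adds the second phosphate to mevalonate (Entrez gene 68603), measured 8.31, 8.52 and 8.45 in control and 9.59, 9.46 and 9.82 with PDGF-BB, a 2.29-fold increase (log2 change 1.20, SE 0.11, limma adjusted p = 0.0011). Mvd, the decarboxylase that yields isopentenyl diphosphate, went from 9.59, 9.69 and 9.42 to 10.64, 10.46 and 10.69, or 2.04-fold. The steps on either side had smaller folds. Mvk, mevalonate kinase, measured 10.58, 10.68 and 10.68 against 11.26, 11.15 and 11.37 (1.53-fold). Fdps, which condenses isoprene units to farnesyl diphosphate, measured 10.76, 10.71 and 10.78 against 11.45, 11.42 and 11.42 (1.60-fold). The SDs of Fdps were 0.03 and 0.02, among the smallest of the 35 genes.

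Downstream of the branch point, all 3 enzymes that make squalene and lanosterol rose, from 1.24-fold to 2.74-fold. Lss, lanosterol synthase, which closes the sterol rings (Entrez gene 16987), had the largest increase of the 35 genes at 2.74-fold. It measured 10.35, 10.71 and 10.72 in control and 11.93, 11.92 and 12.29 with PDGF-BB (log2 change 1.45, SE 0.14, 95% interval 1.12 to 1.78, limma adjusted p = 0.0014), a change larger than that of 99.3% of all genes. Sqle, squalene epoxidase, a rate-limiting oxygenase, rose 1.88-fold, from 10.94, 11.25 and 11.41 to 12.03, 12.01 and 12.29. Fdft1, squalene synthase, the first enzyme committed to sterols, had the smallest change of the sterol arm. It measured 12.17, 12.32 and 12.22 against 12.57, 12.43 and 12.65 (1.24-fold, limma adjusted p = 0.030). Blocking on the replicate number ended that call (limma adjusted p = 0.051), as did omitting any of control arrays 1 and 3 and PDGF-BB arrays 1 and 3 (0.077 to 0.092).

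All 8 enzymes that turn lanosterol into cholesterol rose, with a median log2 change of 0.91 and 4 increases of at least 2-fold. Msmo1, the methylsterol monooxygenase that starts removal of the C4 methyl groups (Entrez gene 66234), had the smallest SE of the 35 genes. It measured 11.54, 11.50 and 11.51 in control and 12.60, 12.57 and 12.55 with PDGF-BB, a log2 change of 1.06 with an SE of 0.05 (limma adjusted p = 3.1e-04). Cyp51, the C14 demethylase, measured 10.94, 10.98 and 11.16 against 12.13, 12.17 and 12.31 (2.26-fold). Hsd17b7, the 3-keto reductase, measured 10.69, 11.10 and 11.03 against 12.08, 11.93 and 12.28 (2.23-fold). Dhcr7, which makes cholesterol from 7-dehydrocholesterol, measured 9.67, 9.41 and 9.52 against 10.67, 10.51 and 10.87 (2.22-fold). These 4 large changes therefore included demethylation at the head of the route and the reductase at its end.

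The other 4 enzymes between lanosterol and cholesterol rose by less than 2-fold. Nsdhl, the C4 decarboxylase, measured 11.59, 11.66 and 11.88 against 12.39, 12.40 and 12.63 (1.70-fold, SE of the log2 change 0.10). Tm7sf2, the C14 reductase, measured 9.86, 9.59 and 9.70 against 10.42, 10.08 and 10.31 (1.47-fold). Its lowest PDGF-BB array lay above its highest control array. The smallest increases were in the enzymes that move and add ring double bonds. Ebp, the sterol isomerase, measured 10.14, 10.17 and 10.11 against 10.45, 10.43 and 10.61 (1.28-fold). Sc5d, the C5 desaturase, measured 12.14, 12.25 and 12.33 against 12.58, 12.46 and 12.71 (1.27-fold, limma adjusted p = 0.030). Omitting any of control arrays 1 and 2 and PDGF-BB arrays 1 and 3 ended the Sc5d call (0.076 to 0.086).

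Over the sterol arm as a whole, from Mvk to Dhcr7, 15 of 15 measured genes rose, with log2 changes from 0.31 to 1.45 and a median of 0.91. The median was 0.78 without control array 1. Each of the 15 had its lowest PDGF-BB array above its highest control array, a separation seen in 16.9% of all genes. Stard4, a soluble carrier that moves cholesterol between membranes, rose nearly as much as Lss. It measured 9.25, 9.31 and 9.15 in control and 10.48, 10.52 and 10.86 with PDGF-BB (2.60-fold, log2 change 1.38, SE 0.11, limma adjusted p = 8.6e-04).

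The fatty acid arm rose less, with 7 of 9 genes higher, a median log2 change of 0.29 and a single increase of at least 2-fold. Its genes were also brighter. The median level in the control arrays was 12.04 to 12.17, beside 10.69 to 10.78 in the sterol arm, and the part of signal strength was not tested. The difference between the arms was not tested, since the genes of an arm are not replicates. Elovl6, which elongates palmitate to stearate (Entrez gene 170439), was highest, from 11.42, 11.62 and 11.60 to 12.54, 12.47 and 12.65 (2.01-fold, log2 change 1.01, SE 0.08, limma adjusted p = 8.5e-04). Acaca, the acetyl-CoA carboxylase that makes malonyl-CoA, measured 9.46, 9.34 and 9.22 against 10.25, 10.08 and 10.28 (1.82-fold). Fasn, fatty acid synthase, measured 12.04, 12.17 and 12.17 against 12.66, 12.61 and 12.65 (1.43-fold). The enzymes that make and first elongate palmitate thus had the 3 largest changes of this arm.

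The desaturases and the elongases of longer chains changed by 1.23-fold or less. Scd1 and Scd2, the Δ9 desaturases that make oleate, had log2 changes of 0.27 and 0.29. Scd1 measured 13.25, 13.46 and 13.48 against 13.61, 13.67 and 13.73, and Scd2 13.39, 13.39 and 13.35 against 13.70, 13.62 and 13.69. The 2 genes are close relatives, and whether their probes match both was not examined. The Scd1 call (limma adjusted p = 0.047) was lost when any 1 of the 6 arrays was left out (0.061 to 0.13), whereas that of Scd2 (0.010) was kept. Elovl1, which extends saturated very long chains, rose 1.20-fold, from 11.96, 12.02 and 11.99 to 12.26, 12.21 and 12.30. Elovl5, which extends polyunsaturated chains, rose 1.23-fold, from 12.02, 12.13 and 11.92 to 12.28, 12.30 and 12.39. Omitting PDGF-BB array 1 ended the Elovl1 call (0.051), and omitting any array but control array 2 ended the Elovl5 call (0.059 to 0.083). The number of genes of this arm that rose was 4 without PDGF-BB array 1.

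Fads1 and Fads2, the Δ5 and Δ6 desaturases that act with Elovl5 on polyunsaturated fatty acids, did not pass. Fads1 measured 13.35, 13.50 and 13.49 against 13.48, 13.53 and 13.51 (log2 change 0.06, 95% interval -0.09 to 0.20, limma adjusted p = 0.62). Fads2 measured 13.17, 13.34 and 13.23 against 13.25, 13.29 and 13.30 (log2 change 0.03, 95% interval -0.12 to 0.18, adjusted p = 0.79). The groups overlapped in both genes, and the intervals leave out changes of the size of the Elovl6 or Fasn increase. All 4 desaturases have bright probe sets. Of the 175 genes with a control mean above 13, 42 were called (24.0%, beside 21.5% of all genes). Of the 175, 7 rose (4.0%, beside 10.1% of all genes) and the other called genes fell. Of those that rose 0 did so 2-fold, and the largest log2 increase was 0.55. The part of signal strength in the small changes of the desaturases was not tested. Between relatives, the log2 change of Elovl6 exceeded that of Elovl5 by 0.71 (95% interval 0.51 to 0.90; two-sided exact permutation p = 0.10, adjusted 0.17), and that of Scd1 differed from that of Scd2 by -0.02 (-0.22 to 0.19).

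**Figure D2:**
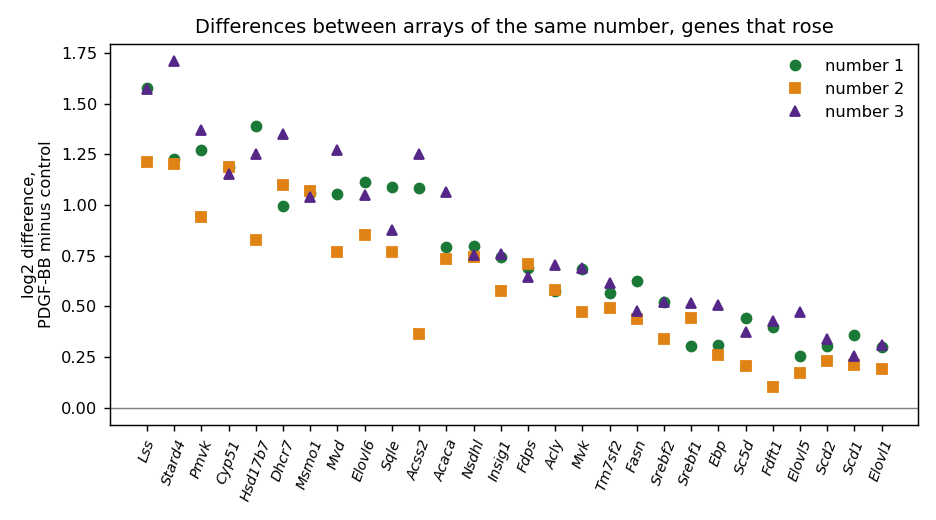
Log2 difference between the PDGF-BB and the control array of the same replicate number (y axis) for the 28 genes that rose (x axis, ordered by mean change). All differences lie above 0, as they must where the groups do not overlap. The squares of number 2 are the lowest of the 3 in 22 genes.

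The increases varied in size between pairs of arrays with the same number. Same-number arrays deviated together across all genes, and on that basis their differences are described here as pairs. The labels do not say that equal numbers share a source, and the main limma fit did not use the pairs. All 28 genes that rose had a positive difference in every pair. Their PDGF-BB arrays all lay above their control arrays, so any matching of arrays would give this result. It is not a further test of the increases. The difference was smallest in pair 2 for 22 of the 28 genes and largest in pair 3 for 17. The median difference of the sterol arm was 0.997, 0.77 and 0.88 in pairs 1, 2 and 3, and that of the fatty acid arm 0.30, 0.21 and 0.34. Acss2 was the most uneven of the 28, at 1.08, 0.37 and 1.25, while Msmo1 gave 1.06, 1.07 and 1.04 and Cyp51 1.19, 1.19 and 1.15.

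Of the 5 genes of sterol sensing, whose products activate or restrain the pathway, 3 rose. Srebf2, which encodes SREBP2 (Entrez gene 20788), measured 11.64, 11.90 and 11.76 in control and 12.16, 12.24 and 12.28 with PDGF-BB (1.38-fold, log2 change 0.46, SE 0.08, limma adjusted p = 0.0078). Srebf1, which encodes the SREBP1 forms, measured 10.17, 10.33 and 10.09 against 10.48, 10.77 and 10.61 (1.34-fold, adjusted p = 0.024). Omitting any of control arrays 1 and 3 and PDGF-BB arrays 2 and 3 ended the Srebf1 call (0.057 to 0.074). The ratio of Srebf2 to Srebf1 differed between groups by 0.04 log2 units (95% interval -0.16 to 0.24). Scap, the sterol sensor that escorts SREBPs to the Golgi, measured 12.01, 12.08 and 12.13 against 12.22, 12.11 and 12.35. The Scap groups overlapped (log2 change 0.16, interval -0.02 to 0.34, limma adjusted p = 0.22).

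Of the 2 retention proteins, Insig1 rose and Insig2 did not pass. Insig1, which is itself a known SREBP target (Entrez gene 231070), measured 12.29, 12.49 and 12.32 in control and 13.03, 13.06 and 13.08 with PDGF-BB, a 1.62-fold increase (log2 change 0.69, SE 0.07, limma adjusted p = 0.0016). Insig2, whose product binds SCAP in the same way, measured 11.36, 11.31 and 11.12 against 11.25, 11.33 and 11.37, with overlapping groups (log2 change 0.05, 95% interval -0.13 to 0.24, adjusted p = 0.73). The log2 ratio of Insig1 to Insig2 within an array was 0.93, 1.18 and 1.21 in control and 1.79, 1.74 and 1.72 with PDGF-BB. The ratio rose by 0.64 (95% interval 0.44 to 0.84), at p = 0.10 in the two-sided exact permutation test, the smallest p that 3 arrays against 3 allow. Adjusted over the 5 ratios compared, the exact p was 0.17. That test shuffles arrays without regard to pairs; within same-number pairs the exact p was 0.25, the smallest that 3 pairs allow, for this ratio and for those of Elovl6 to Elovl5 and Abca1 to Abcg1.

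**Figure D3:**
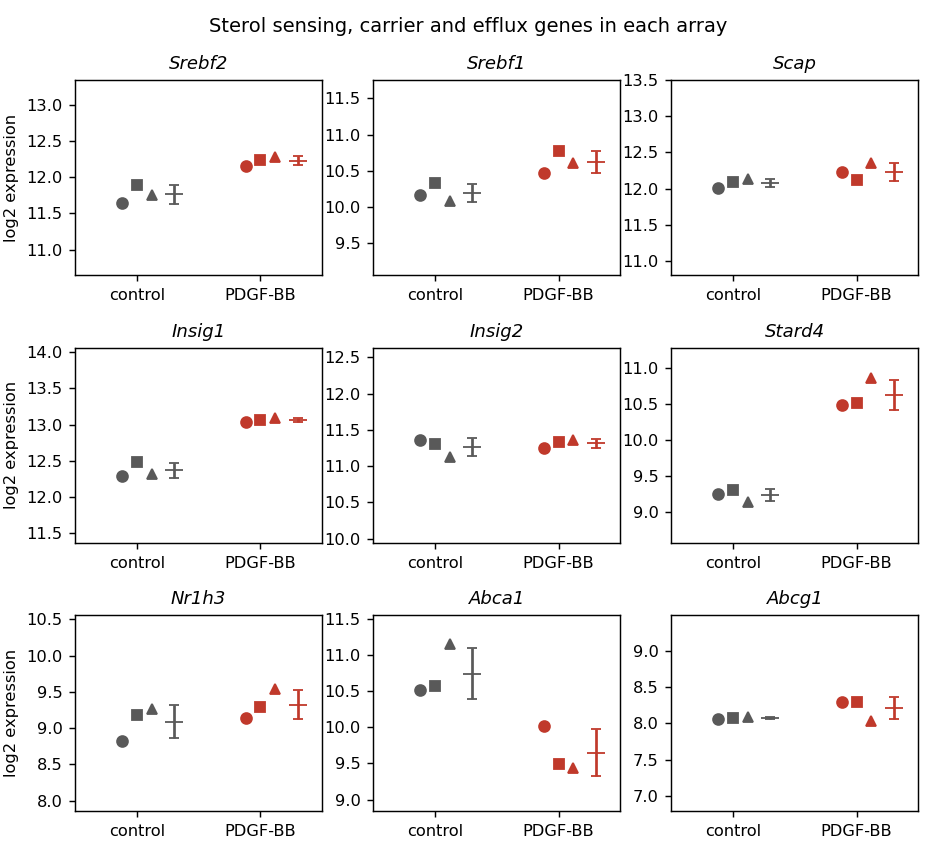
Log2 expression (y axis) of 9 sterol sensing, carrier and efflux genes in the 3 control and 3 PDGF-BB arrays (x axis); circles, squares and triangles are arrays 1, 2 and 3, and bars give the mean ± SD. Every panel spans the same range of log2 units, and Insig1 and Stard4 separate upwards, Insig2 overlaps and Abca1 separates downwards.

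Cholesterol export moved the other way in 1 of the 2 measured exporters. Abca1, which loads cellular cholesterol onto apolipoprotein A-I (Entrez gene 11303), measured 10.51, 10.56 and 11.15 in control and 10.02, 9.50 and 9.43 with PDGF-BB. All PDGF-BB arrays lay below all control arrays, a separation seen in 20.6% of all genes, and the level was 2.13-fold lower (log2 change -1.09, SE 0.21, 95% interval -1.60 to -0.59, limma adjusted p = 0.012). The difference was -0.49, -1.06 and -1.71 in pairs 1, 2 and 3. Leaving out 1 array gave adjusted p-values of 0.014 to 0.045. Abcg1, which exports cholesterol to HDL, measured 8.07, 8.07 and 8.09 against 8.29, 8.30 and 8.04, with overlapping groups (log2 change 0.14, 95% interval -0.06 to 0.33, adjusted p = 0.32). Its values lay only slightly above the background level of 7.99, where arrays measure changes poorly. Nr1h3, the oxysterol receptor LXRα, measured 8.83, 9.19 and 9.26 against 9.14, 9.30 and 9.54, a log2 change of 0.23 with an interval of -0.10 to 0.57. The ratio of Abca1 to Abcg1 fell by 1.23 log2 units (95% interval -1.69 to -0.76; exact permutation p = 0.10, adjusted 0.17).

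Markers of other cell types that make or store lipid were measured beside these genes. Over all genes 10.1% rose and 11.4% fell. None of 7 adipocyte markers passed in limma, and their median log2 level was 7.71 to 7.74 in the control and 7.66 to 7.71 in the PDGF-BB arrays. None of 8 hepatocyte markers passed (6.29 to 6.37 against 6.32 to 6.35). No member of either list had an unadjusted p under 0.05. Of the adipocyte markers, Plin1 (means 8.21 in control and 8.15 with PDGF-BB) and Plin4 (8.71 and 8.49) lay above the background level of 7.99 in both groups, while Adipoq had a control mean of 5.61. All 8 hepatocyte markers lay under it, Alb at 5.45. Macrophages are rich in ABCA1, and of 8 macrophage markers Mpeg1 and Cd14 rose while Cd68 and Lyz2 fell, with median levels of 6.22 to 6.40 against 6.42 to 6.56. Omitting PDGF-BB array 1 or 2 ended the Cd68 call (limma adjusted p = 0.067 and 0.058), and Cd68 and Cd14 alone lay above the background level. The leukocyte genes Ptprc and Adgre1 had control means of 6.17 and 5.80. The part of these markers in the Abca1 result was not tested. Of 10 pericyte markers Anpep rose and Cd248 fell, near the shares over all genes. Cspg4 (log2 change 0.91, limma adjusted p = 0.065) and Mcam (-0.52, adjusted p = 0.15) did not pass, though their groups did not overlap. Pdgfrb, the receptor of the ligand, had a control mean of 12.98, while Rgs5, Des, Kcnj8 and Abcc9 lay under 7.99 in both groups.

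Around the synthetic enzymes, 6 further lists of lipid genes were counted, with medians from -0.26 for fatty acid oxidation to 0.11 for sterol transport, beside -0.02 over all genes. Of 49 measured genes 10 rose and 6 fell, where 10.1% of all genes rose and 11.4% fell, and their median log2 change was -0.03. The number that fell was 3 without PDGF-BB array 1. Among 7 genes of SREBP proteolysis and sterol-regulated degradation only Erlin1, an endoplasmic reticulum scaffold of that degradation, passed (log2 change 0.45, limma adjusted p = 0.038), a call that ended when any array but control array 2 was omitted (0.056 to 0.11). The proteases that release SREBPs, Mbtps1 and Mbtps2, had log2 changes of 0.03 and -0.06. Of 7 genes that lead isoprenoids to other products only Coq2, the prenyltransferase of ubiquinone synthesis, rose (log2 change 0.44, adjusted p = 0.0072). Ggps1, which makes geranylgeranyl diphosphate from the Fdps product, had a log2 change of 1.8e-04 (SE 0.08).

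**Figure D4:**
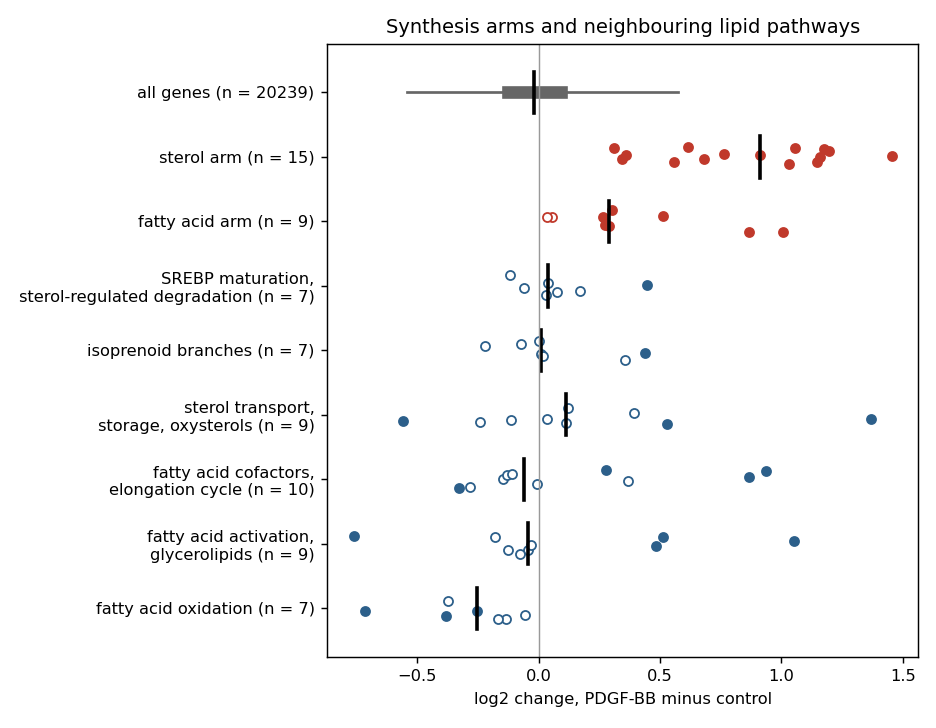
Log2 change (PDGF-BB minus control, x axis) of the genes of the sterol and fatty acid arms and of 6 neighbouring lists (y axis); filled points passed at a limma adjusted p under 0.05, black ticks are medians, and the bar for all genes spans the 25th to 75th percentile with a line from the 5th to the 95th. The sterol arm has its median at 0.91, and the neighbouring lists have theirs between -0.26 and 0.11.

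Single genes in these lists changed as much as the enzymes. Tmem97, the sigma-2 receptor, a sterol-regulated protein of cholesterol trafficking, rose 2.59-fold (log2 change 1.37, SE 0.17, limma adjusted p = 0.0026), and Nceh1, a cholesteryl ester hydrolase, 1.44-fold. Cyp27a1, which makes 27-hydroxycholesterol, was 1.47-fold lower (adjusted p = 0.010); the other 6 of 9 sterol transport, storage and oxysterol genes did not pass. Of 10 genes of fatty acid cofactor supply and the elongation cycle, 3 rose. Hsd17b12, the 3-ketoacyl-CoA reductase that works with every elongase, rose 1.91-fold (log2 change 0.94, SE 0.06, adjusted p = 4.7e-04), and Aacs, acetoacetyl-CoA synthetase, 1.82-fold. The third, Slc25a1, the citrate carrier that feeds Acly, was named after its value was seen (1.21-fold, adjusted p = 0.020), and its call ended when any of control arrays 2 and 3 and PDGF-BB arrays 1 and 3 was omitted (0.057 to 0.070). Hacd3, a 3-hydroxyacyl-CoA dehydratase, fell (log2 change -0.33, adjusted p = 0.040), a call that ended when arrays were centred on their medians (0.058) and when any array but PDGF-BB array 3 was omitted (0.073 to 0.11).

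Genes that use fatty acids moved both ways. Of 9 genes of activation and glycerolipid synthesis, 3 rose, all of them acyl-CoA synthetases. Acsl3, the synthetase of lipid droplets, rose 2.07-fold (log2 change 1.05, SE 0.11, limma adjusted p = 0.0017), Acsl5 1.43-fold, and Acsl4, named after its value was seen, 1.40-fold. Gpam, the mitochondrial acyltransferase that starts triglyceride synthesis, was 1.69-fold lower (adjusted p = 0.014, and 0.054 without PDGF-BB array 1). Of 7 fatty acid oxidation genes 3 fell and 0 rose, with a median log2 change of -0.26. Acadm, the medium-chain acyl-CoA dehydrogenase, was 1.64-fold lower (log2 change -0.71, SE 0.06, adjusted p = 0.0011) and Cpt1a, which brings acyl groups into mitochondria, 1.30-fold lower. Acadvl, the very-long-chain dehydrogenase, was 1.19-fold lower (adjusted p = 0.031). That call ended under the replicate block (0.057), under an intensity trend (0.057), and when any of control arrays 1 and 2 and PDGF-BB arrays 1 and 2 was omitted (0.080 to 0.11).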

How the data were processed

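Total RNA of 6 samples was measured on 1-colour arrays. The authors deposited log2 expression values made with RMA (background correction, quantile normalization and summary per probe set), per the submitters' processing notes; software version and filters were not given in the sources used here. Equalised distributions hide a change in total RNA per cell. Values ran from 4.08 to 14.2, with array medians of 8.43 to 8.46. GEO's platform annotation gave 20239 of 21225 probe sets exactly 1 symbol; the other 986 (4.65%) entered only an alternative. No arrays were duplicates: within a group they differed by a median of 0.0896 to 0.105.

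Groups came from the sample titles. limma (3.58.1, R 4.3.3; lmFit, eBayes, group only) was fitted to all genes, two-sided, with Benjamini-Hochberg adjustment over all 20239; calls are adjusted p under 0.05, intervals 95%, folds 2 to the power of the log2 change. The fit was tested on simulated data. Ratios of relatives were put through an exact permutation test. The background level is the 90th percentile of 19 blood cell markers taken as absent; all 35 genes exceeded it. The number of arrays limits precision. Every measured member is named; of each neighbouring list, up to 3 called genes with the largest change. Members and lists were chosen with earlier results of these data known. Deviations from group means correlated at 0.25, 0.32 and 0.25 between same-number arrays and at -0.28 to 0.01 otherwise. RefSeq promoter windows (GRCm38.p6) were matched by symbol; the array's build is unstated. Alternatives were a replicate block, repeated quantile normalization, centring, a filter under the 50th percentile of mean signal, an intensity trend, all probe sets, and leaving out each array.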

Additional observations from a re-analysis of the deposited data

How the results depend on the processing

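With a replicate block 27 of the genes rose, not 28; beside Fdft1 and Acadvl above, the block changed no other call of a member or named neighbour. Leaving out 1 array, 22 to 26 genes rose and Abca1 fell each time; 4 to 6 genes of the fatty acid arm rose, 3 to 7 neighbouring genes fell, 1514 to 2188 of all genes fell, and the sterol arm's median was 0.78 to 0.96. The Srebf2 to Srebf1 ratio changed by -0.0101 to 0.111 and the Scd1 to Scd2 ratio by -0.0961 to 0.0382. The log2 change of Insig2 was -0.0184 (without control array 3) to 0.0999, and that of Fads2 -0.00258 (without control array 1) to 0.0793. Without dim genes the efflux and LXR median was -0.428, since Abcg1 dropped out. The 50th percentile of the absent markers gave a background level of 6.73, with all 35 genes above it, and the 100th percentile one of 8.25, with 34 above it (not Abcg1). Repeated normalization, centring, the intensity trend and all probe sets changed no member's call. Dim genes such as Abcg1 limit what can be seen.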

Other observations

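The genes that lie next to the lipid genes on the chromosomes were counted as well. In RefSeq's order of protein-coding genes (GRCm38.p6), 64 measured neighbours flanked the 35 genes, with a median log2 change of -0.02. Of these neighbours 7 rose (10.9%) and 7 fell (limma, adjusted p under 0.05), near the 10.1% and 11.4% of all genes. Beside the 28 genes that rose lay 52 of these neighbours, of which 5 rose (9.62%, where 10.1% of all genes rose) and 6 fell. Those 5 were Znhit2, Cetn2, Cdc20, Gclc and Enpep, named after their values were seen, with increases of 1.26-fold to 1.69-fold. At the fatty acid desaturase cluster the genes on either side of Fads1 and Fads2 went apart. Fen1, the flap endonuclease of DNA replication, rose 2.61-fold (log2 change 1.38, limma adjusted p = 0.0031), and Fads3, a further desaturase of the cluster, was 1.39-fold lower (adjusted p = 0.025). Omitting any of control arrays 2 and 3 and PDGF-BB arrays 1 and 2 ended the Fads3 call (0.051 to 0.077). These 2 genes were singled out after their values were seen.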
